A study of Mus musculus with 8 samples.

Results

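Cholesterol in the liver is made from acetyl-CoA, taken up from lipoproteins, stored as ester and exported to bile and to lipoproteins, and 36 genes of these routes were examined in liver RNA of mice with and without hepatocyte Mc1r. The genes were chosen by symbol and role, and comprised 18 enzymes of synthesis, 4 genes of sterol sensing, 7 genes of uptake and intracellular transport, 3 of esterification and 4 of efflux, out of 55487 genes in the count tables. After the filter on low counts, 35 of the 36 genes were among the 13400 genes tested. The gene left out was Npc1l1, the intestinal cholesterol importer, which had 3 counts in control mouse 193, 2 counts in Mc1r LKO mouse 157 and 0 counts in the other mice.

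The animals were male mice, and each sample was the liver of 1 mouse. Control mice carried the floxed allele without Cre (Mc1r fl/fl, mice 154, 159, 181 and 193), and Mc1r LKO mice carried the floxed allele and the Alb-Cre transgene (mice 141, 156, 157 and 182). All 8 mice ate a cholesterol-rich Western diet for 12 weeks, starting when they were 8 weeks old, and were killed after a 4-hour fast. Alb-Cre acts in hepatocytes, so other liver cells keep the Mc1r gene while their RNA is part of the sample, and in such a mixture fewer cells of a type and less RNA per cell cannot be told apart. The hepatocyte genes Alb, Ttr and Fgb were among the transcripts found in every liver, with the 8 hepatocyte markers summing to between 68038 and 100240 CPM (normalised read counts, with TMM library sizes). Mc1r had 0 counts in every mouse, a limit of between 0.121 and 0.278 CPM at 3 counts, so the genotypes could not be checked from these data. Each mouse had between 10773151 and 24763375 counts in total. In a principal component analysis, the first component held 37.6% of the variance, and mouse 182 of the Mc1r LKO group stood furthest apart on it, at 59.3. Control mice 159 (-28.2) and 181 (27.8) came next, on opposite sides, with the remaining mice between -16.3 and -7.03. On the second component, which held 16.9%, control mouse 159 stood furthest apart, at -40.5, with the remaining mice between -8.40 and 22.0.

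When sterol in the endoplasmic reticulum is scarce, SCAP carries SREBP2 to the Golgi for cleavage, and the freed factor switches on the genes of synthesis, while the INSIG proteins hold the complex back when sterol is plentiful. Oxysterols act on a second system, the LXR nuclear receptors, which raise the efflux transporters ABCA1, ABCG1, ABCG5 and ABCG8 and the ubiquitin ligase MYLIP. In the liver, dietary cholesterol is known to lower synthesis and to raise efflux.

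SREBP2 binds sterol regulatory elements, often with the factor NF-Y nearby, and the promoters of a pair of synthesis genes show what such letters look like. RefSeq windows of GRCm38.p6, from 250 bases before to 50 bases after a start site, were at hand for 28 of the 36 genes. The upstream part of the Hmgcs1 window (chr13:119690101-119690350, plus strand) is shown with the letters TCACNCCAC, a core of the sterol regulatory element, in capitals, and the upstream part of the Mvd window (chr8:122443423-122443672, minus strand) with CCAAT or its reverse complement, the NF-Y box, in capitals.
Hmgcs1: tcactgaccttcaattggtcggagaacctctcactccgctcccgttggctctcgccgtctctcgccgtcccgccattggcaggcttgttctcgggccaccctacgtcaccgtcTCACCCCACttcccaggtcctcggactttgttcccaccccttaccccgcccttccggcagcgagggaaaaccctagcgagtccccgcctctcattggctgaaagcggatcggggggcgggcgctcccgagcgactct
Mvd: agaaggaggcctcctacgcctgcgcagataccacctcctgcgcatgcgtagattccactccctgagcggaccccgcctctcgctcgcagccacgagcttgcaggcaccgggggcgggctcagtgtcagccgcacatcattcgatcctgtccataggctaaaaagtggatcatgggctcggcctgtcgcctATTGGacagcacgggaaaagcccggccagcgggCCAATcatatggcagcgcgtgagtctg
Searched on both strands, TCACNCCAC was found in the windows of 1 of the 28 genes (Hmgcs1), against 388 of 27025 genes with a window (1.44%). CCAAT was found in 14 of 15 synthesis genes (93.3%) and in 10 of 13 of the other genes (76.9%), against 41.1% of all genes. Neither motif contains the other, and a match is a description of the sequence only. The protein products of the efflux genes Abcg5 and Abcg8 pair to form the sterol exporter of the canalicular membrane. In the RefSeq windows used here, the genes start 110 bases apart and run in opposite directions. In the annotation of the counts, Abcg8 begins further upstream, at 84676302, within Abcg5 (chr17:84658234-84683011). The 109 bases between the RefSeq starts (chr17:84683012-84683120) are shown on the minus strand, that of Abcg5. This stretch holds no complete match to either motif, although CCAAT was found in the longer windows of both genes, which are among the 10 counted above. It is printed because the levels of both genes are set side by side further on.
Abcg5-Abcg8: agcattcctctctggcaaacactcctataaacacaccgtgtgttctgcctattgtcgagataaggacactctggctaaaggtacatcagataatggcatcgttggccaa

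The first question was whether the loss of hepatocyte Mc1r was accompanied by a change in any of these genes. With edgeR's quasi-likelihood test and Benjamini-Hochberg adjustment, 0 of the 35 genes passed an adjusted p-value of 0.05 together with a log2 fold change of 0.25 or more in size, against a background of 0% of all genes. At an unadjusted p-value under 0.05 with the same limit on the fold change, 1 gene was higher in Mc1r LKO mice, against 2.64% of all genes, and 0 were lower, against 2.66%. That count of 1 is near the background share. The values of the genotypes were fully separated in 0 of the 35 genes, against 4.16% of all genes. By the DESeq2 Wald test and the likelihood ratio test of edgeR the counts were also 1 higher, 0 lower and 0 at an adjusted p-value. Over all 13400 genes, those tests called 17 and 8 genes at an adjusted p-value, and 5.55% and 5.25% by the unadjusted rule. In the quasi-likelihood test, 901 of the 13400 genes had an unadjusted p-value under 0.05.

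The gene that passed was Tm7sf2, a sterol delta-14 reductase that works just after CYP51 (ENSMUSG00000024799, GRCm38 chromosome 19, 6062821 to 6068373, minus strand). Its level was 62.6, 59.8, 53.4 and 42.3 CPM in control mice 154, 159, 181 and 193 and 66.5, 79.2, 73.7 and 61.7 CPM in Mc1r LKO mice 141, 156, 157 and 182. The genotypes overlapped only in that mouse 182 was just below control mouse 154. The means were 54.5 ± 9.03 CPM in control mice and 70.3 ± 7.72 CPM in Mc1r LKO mice (SD, n = 4 each), a log2 fold change of 0.37 (standard error 0.13, 95% interval 0.075 to 0.66, unadjusted p = 0.0188 and adjusted p = 0.734 in edgeR's quasi-likelihood test). Without Mc1r LKO mouse 156 the log2 fold change was 0.31 and the call was lost, at an unadjusted p-value of 0.0581. Exons of Vps51 on the same strand cover 12.1% of the exon bases of Tm7sf2, where read pairs may not be assigned to either gene.

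The opening steps of the pathway build isoprenoids from acetyl-CoA. Hmgcs1, which makes HMG-CoA, had 358, 309, 309 and 161 CPM in control mice 154, 159, 181 and 193 and 221, 292, 365 and 231 CPM in Mc1r LKO mice 141, 156, 157 and 182. Mouse 193 was the lowest and the genotypes covered much the same range, with a log2 fold change of -0.037 (95% interval -0.57 to 0.49). Acat2, the cytosolic thiolase that supplies acetoacetyl-CoA, had 67.4 ± 19.6 CPM in control mice and 76.3 ± 23.7 CPM in Mc1r LKO mice. A pair of kinases and a decarboxylase turn mevalonate into isopentenyl diphosphate. Pmvk, phosphomevalonate kinase, had 37.3, 35.1, 29.1 and 16.6 CPM in control mice and 36.8, 46.5, 46.0 and 26.2 CPM in Mc1r LKO mice, in the same order of mice. Its log2 fold change of 0.40 was the second largest among the synthesis genes, but the interval ran from -0.16 to 0.96, and mice 193 and 182 were the lowest of their groups. Mvd, mevalonate diphosphate decarboxylase, varied 3.90-fold between mice, from 10.4 CPM in control mouse 193 to 40.4 CPM in mouse 156, with a log2 fold change of 0.068 (95% interval -0.79 to 0.93). Mvk, mevalonate kinase, was low, between 6.88 and 11.3 CPM.

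Fdps, which joins isoprenoids into farnesyl diphosphate, had the largest log2 fold change among the members, 0.41 (standard error 0.31, 95% interval -0.27 to 1.10, unadjusted p = 0.207 in edgeR's quasi-likelihood test). Its level was 42.1, 41.6, 28.9 and 21.1 CPM in control mice 154, 159, 181 and 193 and 40.6, 64.5, 50.0 and 22.4 CPM in Mc1r LKO mice 141, 156, 157 and 182. Mice 156 and 157 were above every control mouse and mouse 182 was near the lowest control mouse. Gm43738, an annotated gene on the same strand, covers 26.7% of the exon bases of Fdps. Idi1, isopentenyl diphosphate isomerase, was between 2.10 and 6.38 CPM, and Ggps1, which diverts farnesyl diphosphate to protein prenylation, between 6.97 and 10.0 CPM. Ggps1 had the smallest ratio of highest to lowest mouse among the synthesis genes, 1.44. Fdft1, squalene synthase and the first step committed to sterol, had 61.7, 86.6, 45.6 and 48.5 CPM in control mice and 74.0, 71.3, 71.1 and 46.0 CPM in Mc1r LKO mice.

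Sqle, squalene epoxidase and a flux-controlling step of the sterol branch (ENSMUSG00000022351, GRCm38 chromosome 15, 59315077 to 59331192, plus strand), varied most between mice. Its level was 45.8, 44.2, 6.83 and 6.89 CPM in control mice 154, 159, 181 and 193 and 23.0, 39.2, 39.9 and 3.63 CPM in Mc1r LKO mice 141, 156, 157 and 182. The 3 lowest mice, from both genotypes, were thus below 7 CPM and the other 5 were at 23.0 CPM or above, with none between. The highest mouse had 12.6 times the level of the lowest, and the SD of log2 CPM within a genotype was 1.59, at the 99.6th percentile of all genes tested. The log2 fold change between genotypes was 0.048 with a 95% interval from -1.63 to 1.73, so that a genotype difference of 3-fold in either direction lies within the interval.

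The remaining enzymes turn lanosterol into cholesterol. Lss, lanosterol synthase, had 40.0 ± 8.97 CPM in control mice and 41.9 ± 7.88 CPM in Mc1r LKO mice. Cyp51, lanosterol demethylase, had 82.0, 76.0, 50.0 and 32.7 CPM in control mice 154, 159, 181 and 193 and 64.6, 79.0, 94.1 and 45.2 CPM in Mc1r LKO mice 141, 156, 157 and 182. Mice 193, 182 and 181 were again the lowest. Nsdhl, a sterol dehydrogenase of the demethylation complex, had 55.2, 53.6, 36.2 and 25.4 CPM in control mice and 42.4, 53.9, 55.9 and 24.7 CPM in Mc1r LKO mice. Dhcr7, which catalyses the last step from 7-dehydrocholesterol, had 104, 92.9, 66.1 and 49.9 CPM in control mice and 73.9, 106, 98.4 and 58.3 CPM in Mc1r LKO mice. In Nsdhl and Dhcr7 too, the lowest values were those of mice 181, 193 and 182. The log2 fold changes of Cyp51, Nsdhl and Dhcr7 were 0.24, 0.058 and 0.11, each with an interval that includes 0. Msmo1, the sterol methyl oxidase, was between 39.6 and 67.8 CPM with a log2 fold change of 0.22 (95% interval -0.16 to 0.60). Ebp, an isomerase of the late steps, had its highest level, 201 CPM, in mouse 182 and its lowest, 127 CPM, in mouse 154, an order unlike that of its neighbours in the pathway. Sc5d, a late desaturase, was between 473 CPM in mouse 193 and 785 CPM in mouse 154.

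**Figure D1:**
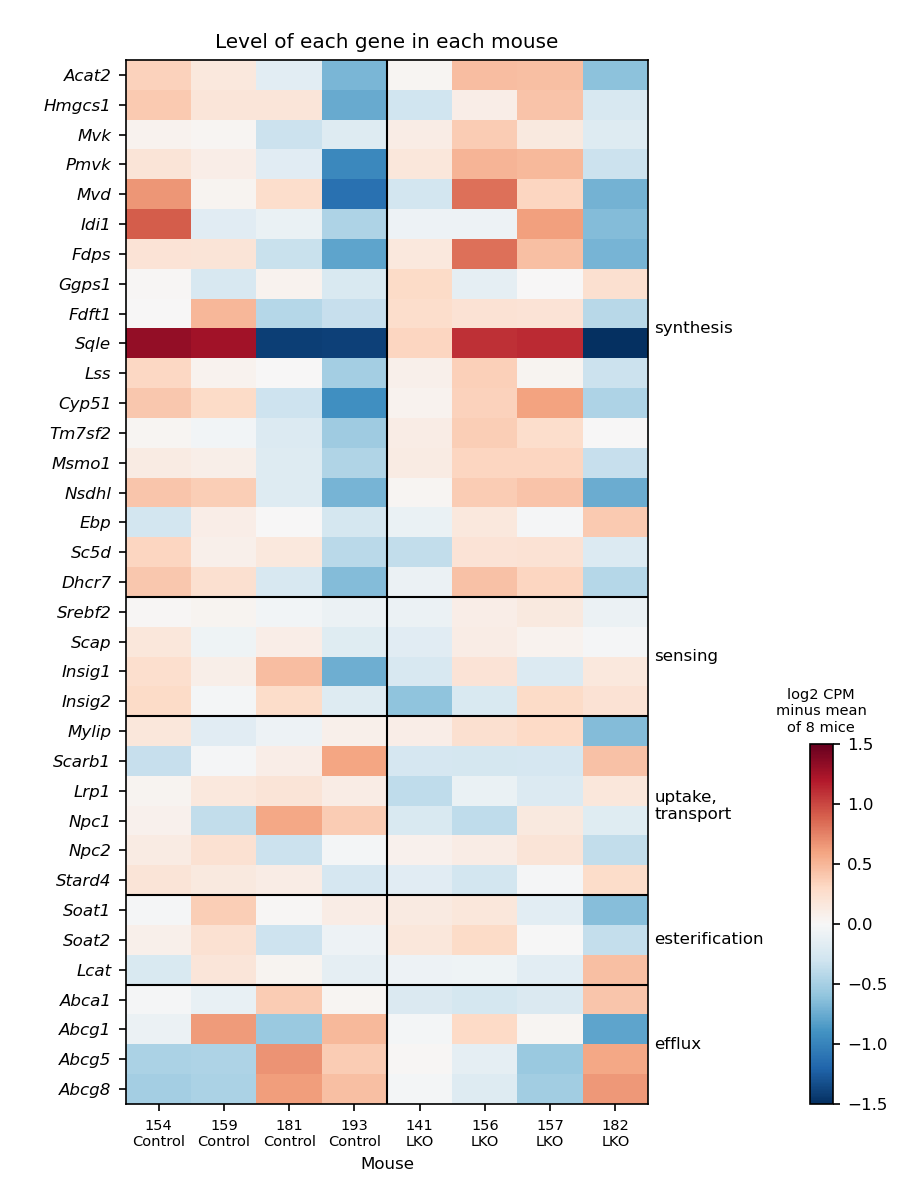
Heat map of the 35 tested genes (rows, grouped by role) in the 8 mice (columns, control mice left of the line), as log2 CPM minus the mean of the gene over the 8 mice, with the colour scale cut at 1.5 in either direction, which Sqle in mouse 182 exceeds. Most synthesis rows are blue in mice 193 and 182, while Abcg5 and Abcg8 are red in mice 181, 193 and 182.

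Mice of the same genotype differed in most synthesis genes at once. Control mouse 193 was among the 3 lowest mice for 18 of 18 synthesis genes, Mc1r LKO mouse 182 for 15 and control mouse 181 for 12, while the other 5 mice were among the 3 lowest for 0 to 4. Mouse 156 was the highest for 8 of the 18, mouse 157 for 4 and mouse 154 for 3. The median over synthesis genes of log2 CPM, each gene centred on its mean over the mice, was 0.32, 0.10, -0.18 and -0.59 in control mice 154, 159, 181 and 193 and 0.069, 0.36, 0.33 and -0.38 in Mc1r LKO mice 141, 156, 157 and 182. Each genotype thus held mice above and below the mean. The median SD of log2 CPM within a genotype was 0.44 over the synthesis genes and 0.52 over the efflux genes, against 0.23 over all genes tested. These counts and medians describe the same 8 libraries, and no test was made of them.

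Sterol sensing was steady in its master factor. Srebf2, which encodes SREBP2, had 46.0, 46.9, 44.5 and 42.8 CPM in control mice 154, 159, 181 and 193 and 42.9, 49.0, 50.6 and 43.1 CPM in Mc1r LKO mice 141, 156, 157 and 182. All 8 mice lay within a 1.18-fold range, with a spread at percentile 7.31 of all genes, although mRNA gives no measure of the cleavage of the protein. The log2 fold change was 0.042 (95% interval -0.15 to 0.23). Scap, its escort, had a log2 fold change of -0.019 (95% interval -0.25 to 0.21). Insig1, an SREBP target that retains the complex, had 361, 322, 419 and 183 CPM in control mice and 258, 351, 264 and 339 CPM in Mc1r LKO mice. Control mouse 193 was the lowest and control mouse 181 the highest, so the Insig1 order did not follow that of Sqle. Insig2, its relative with a liver-specific transcript, was between 353 CPM in mouse 141 and 653 CPM in mouse 154.

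Among the genes of uptake and intracellular transport, 0 of 6 tested passed in either direction. Lrp1, a large endocytic receptor for remnant lipoproteins (ENSMUSG00000040249, GRCm38 chromosome 10, 127538161 to 127621148, minus strand), had 537, 583, 597 and 565 CPM in control mice 154, 159, 181 and 193 and 399, 488, 451 and 588 CPM in Mc1r LKO mice 141, 156, 157 and 182. Mice 141, 156 and 157 were below every control mouse and mouse 182 lay within the control range. The log2 fold change was -0.25 (standard error 0.12, 95% interval -0.51 to 0.021, unadjusted p = 0.0676 in edgeR's quasi-likelihood test). It passed the unadjusted rule with upper quartile scaling (-0.25), with scaling by library size alone (-0.30) and without mouse 182 (-0.35). It also passed with a covariate (-0.26), the first principal component of log2 CPM after the genotype means were removed. Scarb1, the HDL receptor, had 112, 141, 153 and 215 CPM in control mice and 120, 118, 120 and 193 CPM in Mc1r LKO mice, with mice 193 and 182 the highest. Npc1 and Npc2 move cholesterol out of lysosomes. Npc1 had 145, 108, 208 and 181 CPM in control mice and 119, 107, 155 and 123 CPM in Mc1r LKO mice. Its log2 fold change of -0.35 (95% interval -0.78 to 0.076) was the lowest among the members, did not pass. It passed without control mouse 159 (-0.49) and was -0.20 without control mouse 181. Npc2 was between 61.4 and 92.6 CPM with a log2 fold change of 0.0036 (95% interval -0.32 to 0.33). Mylip, the ligase that degrades lipoprotein receptors, was between 7.56 CPM in mouse 182 and 14.7 CPM in mouse 157, and Stard4, a cytosolic sterol carrier and SREBP2 target, between 57.8 and 84.9 CPM.

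Esterification is divided between Soat2, the enzyme of hepatocytes, Soat1, the enzyme of macrophages and other cells, and Lcat, which hepatocytes secrete to esterify cholesterol on HDL. Soat2 had 50.8, 56.6, 38.9 and 45.6 CPM in control mice 154, 159, 181 and 193 and 54.1, 58.8, 47.9 and 37.7 CPM in Mc1r LKO mice 141, 156, 157 and 182. Soat1 had 6.91, 9.02, 7.09 and 7.54 CPM in control mice and 7.67, 7.86, 6.26 and 4.45 CPM in Mc1r LKO mice. Mouse 182 was the lowest for both. Lcat was between 231 and 371 CPM, the latter in mouse 182. The log2 fold changes of Soat2, Soat1 and Lcat were 0.049, -0.22 and 0.086, each with an interval that includes 0.

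Abcg5 (ENSMUSG00000040505) had 83.7, 84.3, 186 and 151 CPM in control mice 154, 159, 181 and 193 and 118, 106, 79.1 and 175 CPM in Mc1r LKO mice 141, 156, 157 and 182. Abcg8 (ENSMUSG00000024254) had 95.3, 97.4, 209 and 185 CPM in control mice and 133, 119, 94.4 and 213 CPM in Mc1r LKO mice. Mice 181, 182 and 193, the lowest for Sqle, were the highest for both exporters, and the genotypes overlapped over nearly the whole range. The log2 fold changes were -0.083 (95% interval -0.75 to 0.58) and -0.069 (95% interval -0.75 to 0.61). Abca1, which loads cholesterol on nascent HDL, had 150, 140, 197 and 155 CPM in control mice and 130, 126, 131 and 202 CPM in Mc1r LKO mice. Mice 181 and 182 were the highest, and the other 3 Mc1r LKO mice were below every control mouse. Its log2 fold change was -0.13 (95% interval -0.50 to 0.25). Abcg1, the transporter to mature HDL, had 9.30, 15.4, 6.67 and 13.9 CPM in control mice and 9.68, 12.2, 10.1 and 5.67 CPM in Mc1r LKO mice. It was lowest in mice 182 and 181, unlike the other efflux genes. The 8 Kupffer cell markers, which sum to 309, 657, 275 and 435 CPM in control mice and 270, 403, 296 and 190 CPM in Mc1r LKO mice, were likewise lowest in mouse 182 and highest in mouse 159, and their part in the values of Abcg1 and Soat1 was not tested.

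**Figure D2:**
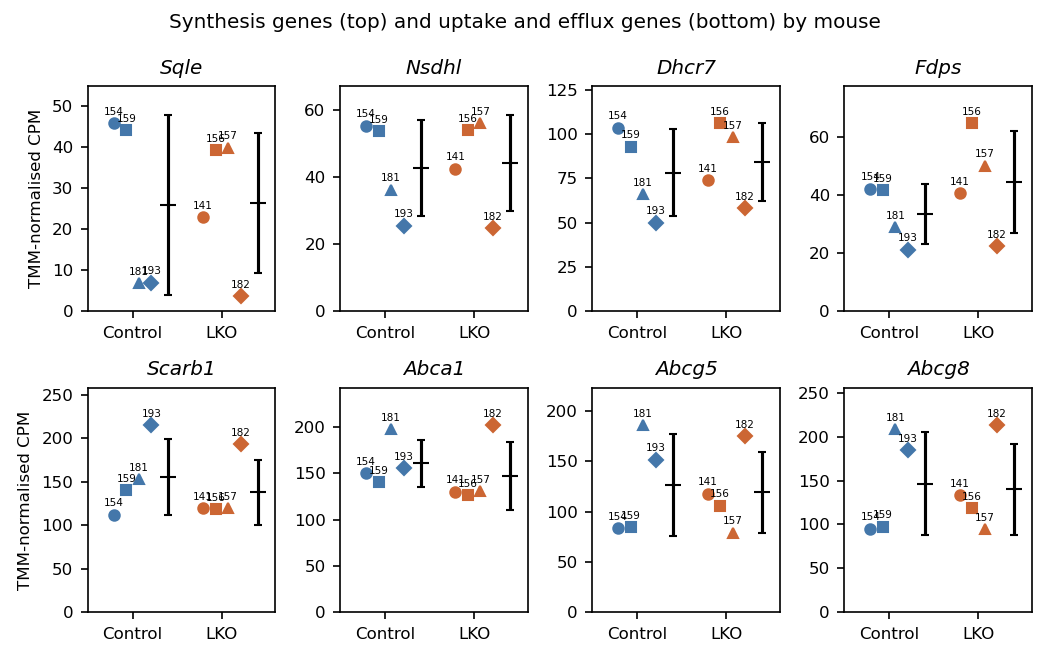
TMM-normalised CPM of 4 synthesis genes (top) and of Scarb1, Abca1, Abcg5 and Abcg8 (bottom) in each mouse, with mouse numbers beside the points and bars giving the mean and SD of 4 mice. In Sqle, mice 181, 193 and 182 lie below 7 CPM, and in Abcg5 and Abcg8 these mice are the highest.

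The comparison of synthesis with the other roles is one of directions and medians. Of the 18 synthesis genes, 15 had a positive log2 fold change (median 0.15), against 2 of 6 for uptake and transport (median -0.13), 2 of 3 for esterification (median 0.049) and 0 of 4 for efflux (median -0.10), and 47.9% of all genes tested (median -0.011). The 2 positive genes of uptake and transport were Npc2 (0.0036) and Mylip (0.033). Mylip degrades lipoprotein receptors but is counted here in the same direction as the receptors. Uptake, esterification and efflux as a single set had a median of -0.091 with 4 of 13 positive. Sensing had 1 of 4 positive (median -0.052). The difference between the median of synthesis and that of uptake, esterification and efflux was 0.24 on the log2 scale, and it ranged from 0.029 without control mouse 193 to 0.51 without control mouse 154. Without mouse 193 the median of synthesis itself was 0.026, and Mvd, Sqle, Lss, Nsdhl and Dhcr7 turned negative. Hmgcs1, Idi1 and Sc5d were negative there and with all mice, so the count of 15 depended on mouse 193. The synthesis genes varied together between mice, and their signs are not separate observations. The median of efflux was 0.072 without control mouse 181 and -0.32 without mouse 182. Those of sensing (-0.15 without mouse 193 to 0.026 without mouse 141) and of esterification (-0.066 without mouse 182 to 0.14 without mouse 159) also changed sign. The intervals of 34 of the 35 genes included 0.

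**Figure D3:**
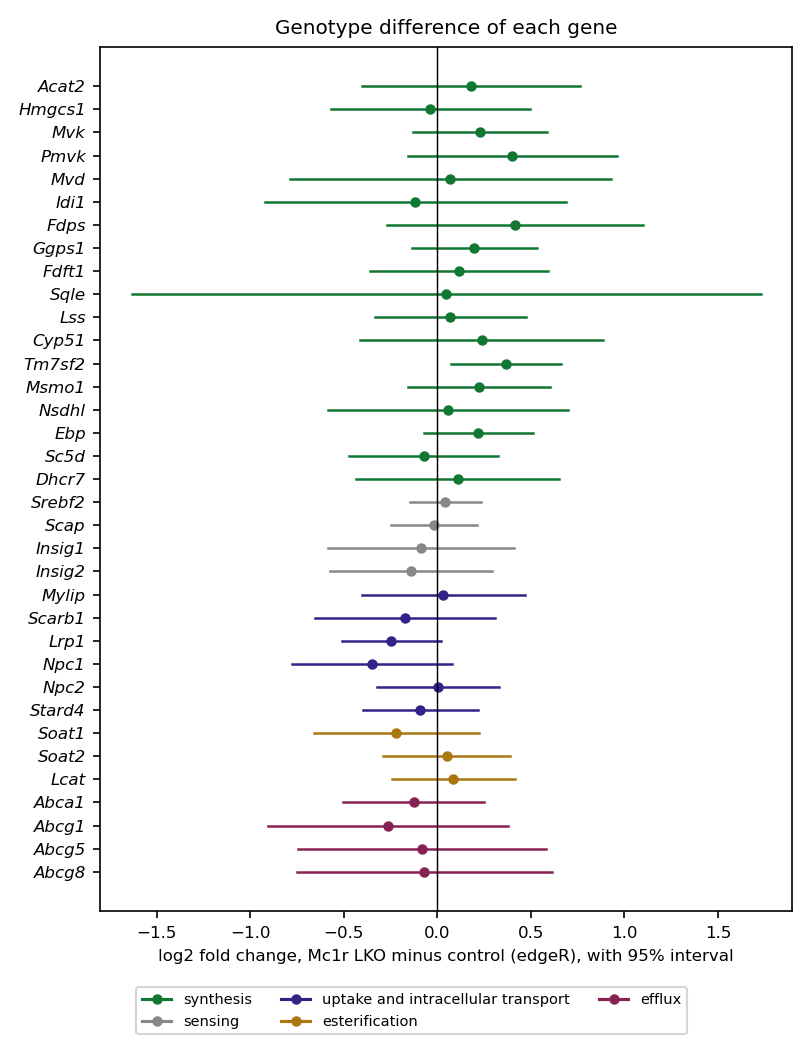
Fitted log2 fold change of Mc1r LKO over control mice (horizontal axis) with its 95% interval for the 35 tested genes, coloured by role. Only the interval of Tm7sf2 (0.075 to 0.66) lies clear of 0, and that of Sqle (-1.63 to 1.73) is the widest.

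The calls changed most without mouse 182. Without it, Pmvk (0.56), Fdps (0.64), Tm7sf2 (0.43) and Msmo1 (0.36) were called higher and Lrp1 (-0.35) and Abca1 (-0.31) lower by the unadjusted rule, 0 of them at an adjusted p-value, while 6.81% of all genes were called in that fit. Other mice moved the same genes the other way, with log2 fold changes of 0.18 for Fdps without mouse 156, 0.21 for Pmvk and 0.13 for Msmo1 without mouse 193, -0.16 for Lrp1 without mouse 141 and -0.0092 for Abca1 without mouse 181. In the 7 mice left without mouse 182, the genotypes did not overlap in Mvk, Tm7sf2, Lrp1 and Abca1, 4 of the 35 genes, against 9% of all genes.

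Levels between genes were compared per exon length, in FPKM computed from the counts and TMM library sizes. Among the synthesis genes, Sc5d was the most abundant (134 ± 27.0 FPKM in control mice, SD, n = 4), followed by Ebp (62.0 ± 8.16) and Hmgcs1 (61.9 ± 18.5), whose means differed by far less than their SD. The least abundant were Idi1 (1.06 ± 0.51 FPKM), Ggps1 (1.64 ± 0.18 FPKM) and Mvk (3.01 ± 0.38 FPKM). Sqle averaged 4.67 ± 3.97 FPKM in control mice and 4.76 ± 3.08 FPKM in Mc1r LKO mice, an SD close to the mean. Over all members, Lcat stood highest (199 ± 25.2 FPKM in control mice), before Insig2 (165 ± 26.7), and Soat1 lowest among the tested genes (0.78 ± 0.098). Soat2 was at 21.7 ± 3.40 FPKM in control mice, and Abcg5 and Abcg8 at 46.6 ± 18.8 and 39.1 ± 15.7 FPKM, far above Abcg1 (1.55 ± 0.56 FPKM).

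**Figure D4:**
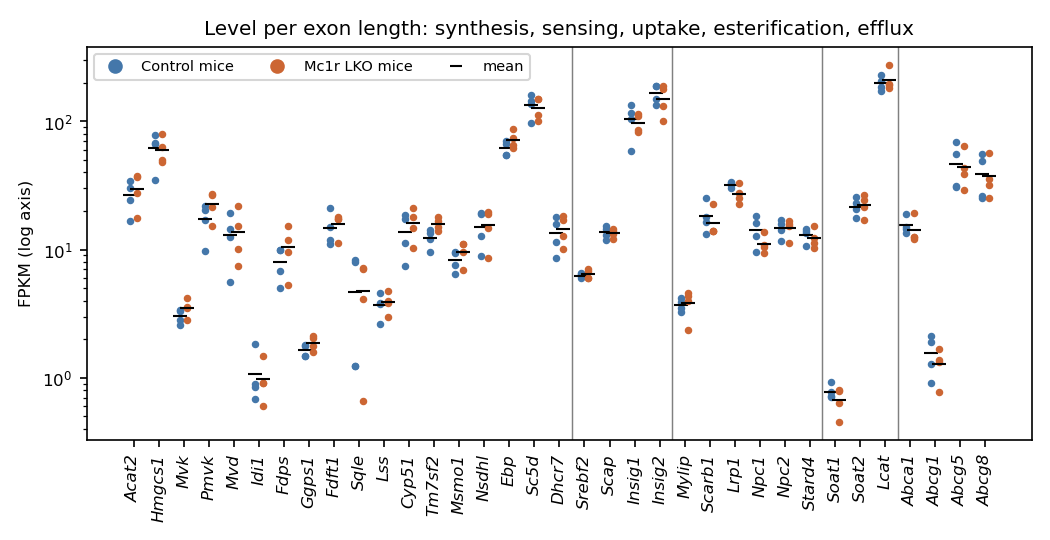
FPKM of the 35 tested genes on a log axis, in order of role, with 1 point per mouse and a dash for the mean of each genotype. Sqle shows the widest spread of points within each genotype, and Srebf2 a narrow one.

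Ratios of 2 genes within a mouse cancel the scaling of the library except for the pseudocount, which weighs on genes as low as Soat1, and 6 were compared between genotypes by two-sided exact permutation tests on log2 ratios of FPKM + 0.1, for which 4 mice against 4 allow no p below 0.0286. The ratio of Soat2 to Soat1 was 4.84, 4.65, 4.42 and 4.57 on the log2 scale in control mice 154, 159, 181 and 193 and 4.79, 4.88, 4.88 and 4.95 in Mc1r LKO mice 141, 156, 157 and 182. Only control mouse 154 reached into the Mc1r LKO range. The mean difference was 0.26 (exact permutation p = 0.0571, adjusted p = 0.343 over the 6 ratios), which did not pass. With a pseudocount of 0.01 the difference was 0.29 (exact permutation p = 0.0571). Leaving out each mouse in turn gave differences from 0.19 without control mouse 181 to 0.33 without control mouse 154, the mouse that overlapped, with exact permutation p between 0.0286 and 0.0857. Abcg5 and Abcg8 kept a nearly fixed ratio, between 0.18 and 0.30 on the log2 scale in all 8 mice, with a genotype difference of -0.0083 (exact permutation p = 0.914), while each gene varied more than 2.2-fold. The ratio of Insig1 to Insig2 differed by 0.13 (exact permutation p = 0.571) and that of Npc1 to Npc2 by -0.32 (exact permutation p = 0.429). The ratio of Sqle to Abcg5 spanned from -6.42 in mouse 182 to -1.89 in mouse 154 on the log2 scale, and the genotypes differed by 0.17 (exact permutation p = 1). For Sqle to Abca1 the difference was 0.26 (exact permutation p = 0.971).

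How far the other genes follow Sqle could not be tested across mice, because the 8 mice fall into 2 separate sets by Sqle, of 3 and 5 animals, each too small for a correlation. The list of 43 further genes of sterol handling ran from SREBP proteases to oxysterol-binding proteins, and 41 were tested. Of these, 0 were called higher by the unadjusted rule, against 2.64% of all genes, and 0 lower, against 2.66%. A positive log2 fold change was found in 27 (median 0.036), against 47.9% of all genes tested (median -0.011).

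Livers can differ in feeding state and time of day, to which sterol genes are known to respond. By the unadjusted rule, 2.64% of all genes were called higher and 2.66% lower. Of 12 genes of the feeding state, Angptl4, an inhibitor of lipoprotein lipase that rises in fasting, was called higher (log2 fold change 0.67, unadjusted p = 0.000365, adjusted p = 0.734 in edgeR's quasi-likelihood test), and of 12 clock genes Per1 was called higher (0.76, unadjusted p = 0.0105, adjusted p = 0.734). The centred median of the feeding-state list was 0.54, -0.33, 0.33 and -0.39 in control mice 154, 159, 181 and 193 and -0.12, 0.38, 0.21 and -0.44 in Mc1r LKO mice 141, 156, 157 and 182. Mice 193 and 182, the lowest for synthesis, were the lowest here as well, and the part of feeding state in the synthesis values was not tested. Clock genes peak at opposite times of day, so a median over that list says nothing of phase, and Dbp and Arntl, a pair in opposite phase, are given instead, chosen after their values were seen. Dbp had 26.6, 74.7, 43.3 and 111 CPM in control mice 154, 159, 181 and 193 and 113, 69.1, 35.3 and 13.1 CPM in Mc1r LKO mice 141, 156, 157 and 182. Arntl had 16.1, 9.48, 14.9 and 4.93 CPM in control mice and 3.80, 10.7, 11.0 and 20.7 CPM in Mc1r LKO mice. Mice 141 and 193 were the highest for Dbp and the lowest for Arntl, mouse 182 was the reverse, and the part of clock phase in the cholesterol genes was not tested.

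Markers of other liver cells moved with some mice. The summed level of the 6 lipid-associated macrophage markers was between 72.2 and 214 CPM in control mice and between 36.6 and 303 CPM in Mc1r LKO mice, lowest in mouse 182, where endothelial and stellate markers were lowest too (128 and 199 CPM). In Mc1r LKO mouse 141, the highest, Spp1 alone gave 239 of the 303 CPM. Trem2, Gpnmb, Itgax and Mmp12 were instead highest in control mouse 193, and Cd9 in Mc1r LKO mouse 156. These genes were named after their values were seen. Kupffer cell markers were lower in Mc1r LKO mice for 8 of 8 genes (median log2 fold change -0.44), against 6988 of the 13400 genes tested. Of the markers, Csf1r was called lower, against 2.66% of all genes. The sums overlapped (275 to 657 CPM in control mice, 190 to 403 CPM in Mc1r LKO mice). All 8 hepatocyte markers had a positive log2 fold change (median 0.16), against 47.9% of all genes tested. Tat was called higher, against 2.64% of all genes, it and Csf1r being named after their values were seen. Cholangiocyte markers summed to between 6.14 and 16.8 CPM, lymphocyte markers to between 1.18 and 3.07 CPM and erythroid markers to between 165 and 247 CPM. The part of cell composition in the values of the cholesterol genes was not tested.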

How the data were processed

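Liver RNA of 4 control and 4 Mc1r LKO mice was sequenced, and the groups were taken from the sample labels. The authors deposited, for each mouse, raw counts of the read pairs on each gene, without normalization, filter or pooling. The submitters' processing notes name Trim Galore 0.6.6, STAR 2.7.6a and Subread 2.0.1, and the table headers name counting by strand on GRCm38 (the methods write GRCh38). Read pairs shared by overlapping genes of a strand can thus be lost, while antisense genes do not share counts. Total counts were between 10773151 and 24763375, and limits for 0 counts cover counting error only.

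Gene symbols were matched to 55141 of 55487 Ensembl identifiers. In edgeR 4.0.16, run in R 4.3.3, filterByExpr (minimum count 10, minimum total 15, by group) removed low counts, TMM set the library sizes, and the quasi-likelihood test of glmQLFit and glmQLFTest was applied. Its p-values were adjusted over 13400 genes by the Benjamini-Hochberg method. Log2 CPM had a prior count of 2, and FPKM used the exon length of the tables and 0.1 as pseudocount in ratios. The fit was tested on simulated data. Every pair of mice of a genotype differed beyond sampling noise (chi-square over degrees of freedom at least 11.9). Mice were treated as separate animals by their numbers, and no batch is named. The members and gene lists were chosen with earlier results of these data known. All members are described; of other genes, those of the lists called by the unadjusted rule and the 10 most like Sqle across mice are named by rule, and any further gene was chosen after its values were seen. Alternatives were DESeq2 1.42.0, limma-voom (limma 3.58.1), the likelihood ratio test, robust dispersion, other scalings, filters and fold limits, and leaving out each mouse. A further alternative was a covariate, the first principal component of log2 CPM after the genotype means were removed. Promoter windows came from RefSeq (GRCm38.p6). Genes of the pathway not listed here were not analysed here.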

Additional observations from a re-analysis of the deposited data

Results flagged for a closer look

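In 4 genes, mouse 182 of the Mc1r LKO group lay apart from the other 3 mice of its group by Dixon's criterion. Fdft1, squalene synthase, was at 45.99 CPM in mouse 182 against 71.09 to 73.97 CPM in mice 141, 156 and 157. Scarb1, the HDL receptor, was at 193.2 CPM against 118.3 to 119.7 CPM. Lcat was at 371.1 CPM against 243.1 to 260.7 CPM, and Abca1 at 201.8 CPM against 125.9 to 130.9 CPM. The criterion was applied to 82 groups of 4 mice and marks about 1 in 20 by chance, or 4.1 of these. The count of 4 marks is near that number, which says nothing of how marks spread over mice. Here, all 4 fell on mouse 182. Mouse 182 is also the mouse with the largest value on the first principal component (59.3).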

How the results depend on the processing

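No paired analysis was possible because the mouse numbers are not shared between the genotypes. Over the single genes, alternatives other than leaving out a mouse gave the same side of the threshold and the same direction in 342 cases, added a call for Lrp1 in 3, and turned the sign in 5. The number of genes called lower was 1 in place of 0 (Lrp1) with upper quartile scaling, scaling by library size alone and the principal component covariate. Of the 13400 genes tested, 352, 500 and 693 were called lower in those fits. Scaling by library size alone gave 1 gene in which the genotypes did not overlap (Lrp1), against 3.75% of all genes. It also gave log2 fold changes of -0.00202 for Mylip and -0.03441 for Npc2, and a share of 25.3% higher among all calls in place of 49.8%. Mylip was also at -0.028 with limma-voom and -0.01125 with the principal component covariate, under which Sqle was at -0.1562. With a limit of 0.5 on the fold change, 0 genes were called higher. Signs turned under these settings for genes close to 0; the cause was not tested.

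Leaving out each mouse in turn gave between 0 and 4 genes called higher, between 0 and 2 called lower and between 0 and 4 in which the genotypes did not overlap, the highest each time without mouse 182. In the same fits, between 4.45% and 6.81% of all genes were called in either direction. The genotypes did not overlap in between 6.22% and 9% of all genes. Log2 fold changes that changed sign ranged from -0.3226 to 0.1649 for Abcg5, from -0.3432 to 0.1528 for Abcg8, from -0.04951 to 0.281 for Dhcr7, from -0.225 to 0.09684 for Hmgcs1, from -0.3985 to 0.2853 for Idi1, from -0.273 to 0.07124 for Insig1, from -0.259 to 0.01321 for Insig2, from -0.06681 to 0.1701 for Lcat, from -0.0631 to 0.1988 for Lss, from -0.2441 to 0.332 for Mvd, from -0.05898 to 0.2139 for Mylip, from -0.09285 to 0.1175 for Npc2, from -0.1199 to 0.2638 for Nsdhl, from -0.1946 to 0.03318 for Sc5d, from -0.07214 to 0.04175 for Scap, from -0.3776 to 0.03306 for Scarb1, from -0.04091 to 0.1669 for Soat2 and from -0.2735 to 0.5069 for Sqle. The genotype differences in log2 ratio ranged from -0.03313 to 0.01395 for Abcg5 to Abcg8, from -0.02267 to 0.3193 for Insig1 to Insig2, from -0.5717 to -0.07436 for Npc1 to Npc2, from 0.1892 to 0.3269 for Soat2 to Soat1, from -0.2814 to 1.171 for Sqle to Abca1, from -0.4844 to 1.122 for Sqle to Abcg5. The median log2 fold change ranged from -0.2695 to -0.07188 for uptake and transport and from -0.2227 to -0.002572 for uptake, esterification and efflux together. The alternatives planned for the correlation with Sqle were not run, since no correlation is reported. The 4 mice a group limit the precision unequally, from a 95% interval of -0.15 to 0.23 for Srebf2 to one of -1.63 to 1.73 for Sqle.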

Other observations

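Outside the 36 cholesterol genes, the 10 genes whose log2 CPM ranked most like that of Sqle over the 8 mice (Pearson r over 8 points, used as a ranking only, since the mice fall into separate sets and share their libraries) were, in order, Igsf5, Ccdc69, Fabp5, Nek2, Abhd11, Slc44a3, Lmo2, Tmed4, Neurl2 and Tuba1b. Fabp5, a fatty acid binding protein, had 29.9, 49.0, 11.9 and 12.3 CPM in control mice 154, 159, 181 and 193 and 28.5, 38.5, 40.2 and 7.61 CPM in Mc1r LKO mice 141, 156, 157 and 182. Igsf5, a junction protein of epithelia, was between 13.3 and 16.5 CPM, a far narrower range, with mice 181, 193 and 182 again the lowest.

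Srebf1, which encodes the SREBP of fatty acid synthesis and is a known LXR target, was chosen after its values were seen. It had 312, 273, 538 and 442 CPM in control mice 154, 159, 181 and 193 and 330, 330, 242 and 463 CPM in Mc1r LKO mice 141, 156, 157 and 182. Mice 181, 182 and 193 were the highest, as they were for Abcg5 and Abcg8, and the log2 fold change between genotypes was -0.20 (standard error 0.24, unadjusted p = 0.427 in edgeR's quasi-likelihood test). Of the LXR receptor genes, named after their values were seen, Nr1h2 lay between 31.4 and 38.0 CPM and Nr1h3 between 85.6 and 99.0 CPM in all 8 mice. Rdh11, a reductase that SREBP is known to induce and that was also chosen after its values were seen, had 57.7, 52.8, 38.7 and 22.8 CPM in control mice and 50.3, 63.4, 71.6 and 33.8 CPM in Mc1r LKO mice, lowest in mice 193, 182 and 181.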
